A study of Homo sapiens with 6 samples.

Results

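The RNAs described here were the LINC long noncoding RNAs that HT29 cells expressed. The set comprised every gene listed in both deposited tables whose Ensembl identifier is a lncRNA in GENCODE release 44, whose symbol is LINC followed by digits, and whose mean reached 50 normalized counts in at least 1 of 3 groups. Of 60676 genes listed, 2242 were LINC lncRNAs, 1118 of those had at least 1 read, and 199 reached the mean of 50. The members were thus selected on their own counts, so a member that reached 50 only in a group where it was high had to differ from the others, and such differences are given below as values without a test. HT29 is an established human colon adenocarcinoma line, here of genotype WT, and the study profiled it by bulk RNA sequencing to ask how cells respond to a shortage of 1 amino acid, with tryptophan shortage as the comparison for histidine shortage. Cells were kept for 48 h in control medium (untreated), in histidine-depleted medium (Hdepl) or in tryptophan-depleted medium (Wdepl), with 2 libraries in each group. Per the study's methods, RPMI was the base of the medium without histidine and DMEM F-12 that of the medium without tryptophan, both with dialyzed serum, and the methods of the RNA sequencing do not name the base of its control medium, although full RPMI was the control for these depletions in the study's proteomics. Depletion and dialyzed serum therefore cannot be told apart. Neither can the base medium for Wdepl if the control was RPMI. If the control was DMEM, in which the study cultured its HT29 cells, this holds for both depletions. The sources do not say that the libraries came from separate cultures, so every p-value measures only the spread between these libraries.

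Long noncoding RNAs are transcripts without a recognised protein product. Some act on the chromatin of nearby genes, some bind proteins or microRNAs, and for many no function is known. The LINC symbols are numbered placeholder names, given in principle to lncRNA genes that lie between protein-coding genes and have no better name. Some members nonetheless overlap a coding gene, as LINC01619 does BTG1, and a LINC number carries no information on function or position. The libraries were poly(A)-selected, and LINC transcripts without a poly(A) tail are outside this measurement.

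Total reads recovered per library ranged from 46390819 to 64388876, and the members took between 0.0803% and 0.107% of them. That share was 0.0864% and 0.0832% in the untreated libraries, 0.0806% and 0.0803% under histidine depletion, and 0.107% and 0.106% under tryptophan depletion, so both tryptophan-depleted libraries lay above the other 4. The members were chosen partly by their Wdepl values, and without LINC00662 and LINC00963 the shares were 0.0842% and 0.0834% in Wdepl and 0.0749% to 0.0791% in the other libraries. Other lncRNAs at the same level moved likewise, with 1.04% in both Wdepl libraries and 0.782% to 0.873% in the others. Replicates of a member differed by a median of 0.134, 0.132 and 0.140 on the log2 scale in untreated, Hdepl and Wdepl libraries, against 0.0790, 0.0586 and 0.0472 over the 13913 genes that averaged 50 or more across all libraries, whose levels are mostly far higher. The 10 colon epithelial markers summed to between 407454 and 432720 counts in untreated, 494827 and 523364 in Hdepl and 562542 and 566386 in Wdepl libraries. That sum rests mostly on keratins KRT8 and KRT18, which with the adhesion molecule EPCAM were high in every library. KRT8 had 186625 and 201539 counts in untreated, 320941 and 340439 in Hdepl and 251100 and 250605 in Wdepl libraries. KRT18 had 118089 and 123660, 81036 and 86412, and 159788 and 158683 counts in the same order. Other markers of the list also differed between groups. The galectin gene LGALS4 had 54147 and 56465 counts in untreated, 17513 and 19660 in Hdepl and 60596 and 59472 in Wdepl libraries. The intestinal transcription factor gene CDX2 had 469 and 457, 182 and 172, and 423 and 365 counts in the same order, and the surface antigen gene GPA33 78.7 and 75.6, 2.71 and 10.2, and 36.3 and 27.5. CDX1 had 21.9 and 18.9 counts in untreated libraries, 0 in both Hdepl libraries and 5.34 and 2.75 in Wdepl libraries. Keratin KRT20 was higher in both depletions, with 10264 and 10759, 34599 and 35062, and 55379 and 54901 counts. The part of these marker differences in the LINC results was not tested. Markers of fibroblasts, leukocytes and endothelium summed to between 85.4 and 129 counts, with COL1A2 at 0 in every library. Within that sum VWF had 7.65 and 3.98 counts in untreated, 42.5 and 40.7 in Hdepl and 8.54 and 8.24 in Wdepl libraries. PECAM1 moved the other way, with 48.1 and 36.8, 8.13 and 9.16, and 20.3 and 18.3 counts in the same order. As these are bulk libraries, fewer cells expressing a LINC RNA and less of it per cell cannot be told apart.

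As a class, the members had longer merged exons than other lncRNAs and lower levels than messenger RNAs, by their medians. Their merged exons, the union of all annotated exons of a gene, had a median of 3809 bases, with a range of 246 to 33198 bases, against 2856 bases for 1215 other lncRNAs at the same level and 5421 bases for 12085 protein-coding genes at that level. Single-exon genes made up 10.1% of the members (20 of 199), 22.2% of the other lncRNAs and 1.61% of the protein-coding genes. Per kilobase of merged exons, the median untreated level was 27.4 counts for the members, 36.7 for other lncRNAs and 285 for protein-coding genes. Merged exons can lengthen with the number of annotated transcripts, whose median was 5 for the members, 2 for other lncRNAs and 8 for protein-coding genes. The part of that number in these lengths and levels was not tested. The exons of 124 members overlapped no other annotated gene, 21 members overlapped one on the same strand and 66 overlapped one on the opposite strand. The library kit preserved strand, but whether the counting used it is not given in the sources used here, so reads of members with an opposite-strand overlap could belong to either gene. A comparison of annotated transcripts found exact runs of 100 bases shared with a gene elsewhere for 37 members, and 5 members shared at least 50% of such runs. LINC01106 and LINC01123 shared sequence with each other, with 80.3% of the runs of LINC01106 found in LINC01123 and 72.9% of those of LINC01123 found in LINC01106 (86.2% in any gene elsewhere). LINC01001 (73.0%) and LINC01002 (52.2%) were others, and LINC00106, in the pseudoautosomal region, shared its whole sequence with its own annotated duplicate. Counts of these 5 members are uncertain, since the reads could be split or lost between copies.

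Levels spanned several orders of magnitude. On a common scale for all 6 libraries (recovered reads divided by median-of-ratios size factors), the members' untreated means ran from 0 to 2131 counts with a median of 103, and 9 members exceeded 1000 counts while 11 stayed below 10. The same median was 89.7 under histidine depletion and 104.6 under tryptophan depletion, where 13 and 12 members exceeded 1000 counts. LINC00963 was the highest untreated member by count and LINC03057 by count per kilobase. LINC03057 (chr17:48635923-48647023 in GRCh38, minus strand) gave 563 and 612 counts per kb in the untreated libraries, 194 and 204 under histidine depletion and 386 and 378 under tryptophan depletion. LINC01106 followed with 538 and 536 counts per kb in untreated cells, then LINC01169 with 509 and 466 and LINC02967 with 445 and 451. The libraries of LINC03057, LINC01106, LINC01169 and LINC02967 did not overlap between neighbours in this order. Below them, LINC01123 gave 395 and 376 counts per kb, LINC00857 308 and 320.3, LINC02086 273 and 278, LINC02562 267 and 274, LINC00973 235 and 233 and LINC00992 204 and 231. LINC02086 and LINC02562 overlapped in their ranges, so their order is within the spread.

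The order changed with the medium. LINC00973, the ninth member per kb in untreated cells, was the highest under histidine depletion at 2577 and 2416 counts per kb, and LINC02967 was the highest under tryptophan depletion at 2671 and 2675. LINC00857 ranked 6, 3 and 7 among the members in untreated, Hdepl and Wdepl cells. LINC00513, a lncRNA whose variants have been linked to type I interferon signalling, moved from rank 92 in untreated cells to rank 5 under histidine depletion and rank 135 under tryptophan depletion.

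**Figure D1:**
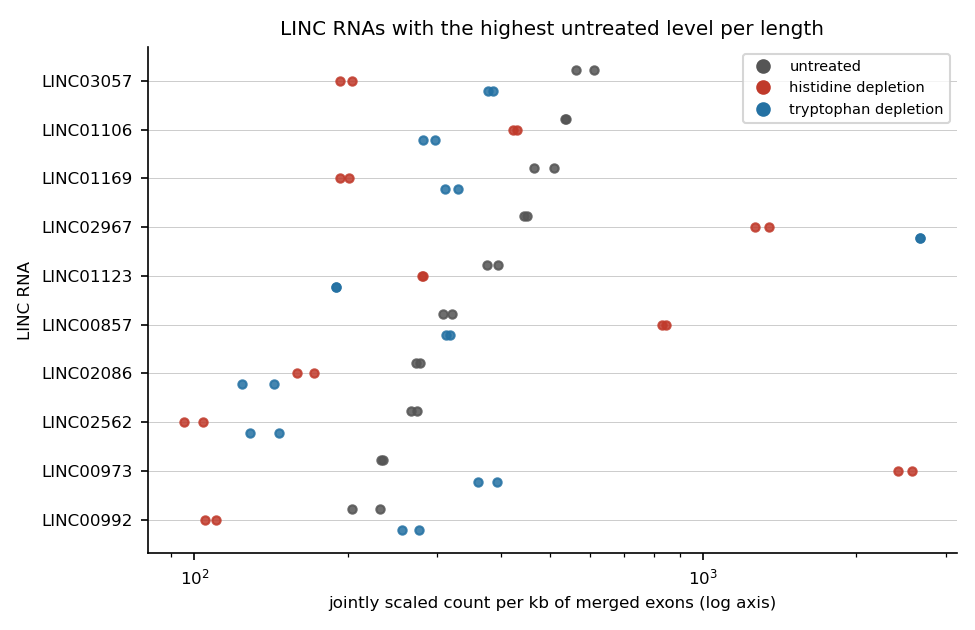
Counts per kilobase of merged exons (log axis, recovered reads scaled together over 6 libraries) for the 10 LINC RNAs with the highest untreated level, where each point is 1 library. LINC00973 under histidine depletion (2577 and 2416) and LINC02967 under tryptophan depletion (2671 and 2675) are the highest points, while LINC03057, the highest untreated member, is lower in both depletions.

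The first comparison asked which LINC RNAs changed under histidine depletion. More members fell than rose, and the large changes included a strong rise of LINC00973 and LINC02889 and a strong fall of LINC00261 and LINC01833. So that the choice of members did not use the values compared, the count was made over the 147 members that tryptophan-depleted libraries alone carried to a mean of 50. Of these, 74 (50.3%) were lower and 40 (27.2%) higher at a limma adjusted p under 0.05, and 33 did not pass. Over all genes tested the same test called 39.1% higher and 38.2% lower. For genes that averaged 50 or more in Wdepl it called 41.1% higher and 42.5% lower, and among other lncRNAs at that level 31.9% higher and 41.3% lower. The members' share of falls was above each of these backgrounds and their share of rises below each. Their median log2 fold change was -0.36, against 0.010 over all genes tested and -0.12 over the other lncRNAs. With a change of at least 2-fold also required, 43 members (29.3%) were lower and 20 (13.6%) higher. That rule called 16.1% of all genes tested lower and 16.4% higher, 15.1% and 12.8% of the genes that averaged 50 or more in Wdepl, and 19.8% and 14.6% of the other lncRNAs at that level.

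Among the members that rose, LINC00973, reported as responsive to chemotherapeutic drugs in colon cancer cells, was the most abundant. This gene lies at chr3:98981058-98983096 on the plus strand in GRCh38 and overlaps no other gene. Its normalized counts were 2479 and 2314 in the Hdepl libraries and 224 and 222 in the untreated libraries, a 10.7-fold rise (log2 fold change 3.42 ± 0.07 SE, limma adjusted p = 4.63e-22). LINC01913 (chr2:41860155-41894050) went from 7.57 and 6.92 to 156 and 139 counts (log2 fold change 4.17 ± 0.26 SE, limma adjusted p = 3.08e-13). LINC02889 (chr7:17405479-17558909) went from 22.7 and 21.7 to 259 and 275 counts (log2 fold change 3.53 ± 0.18 SE, limma adjusted p = 6.53e-15). In each of these genes every Hdepl library lay far above both untreated libraries. LINC00857, studied as a tumour-associated lncRNA, gave 2081 and 2111 counts against 765 and 799, a 2.68-fold rise (log2 fold change 1.42 ± 0.06 SE, limma adjusted p = 2.52e-16). LINC02967 rose 2.94-fold, from 504 and 513 to 1449 and 1539 counts (log2 fold change 1.55 ± 0.07 SE, limma adjusted p = 4.34e-16). Further members that rose, chosen for mention after their values were seen, were LINC03061 (4.01-fold, 383 and 392 to 1581 and 1525 counts), LINC03064 (10.3-fold, 11.9 and 24.7 to 202 and 176), LINC03016 (9.95-fold, 17.3 and 18.8 to 172 and 187) and LINC00623 (3.11-fold, 269 and 286 to 862 and 864). The untreated libraries of LINC03064 differed from each other (11.9 and 24.7), so its fold depends strongly on which of them is used. LINC00623 shares 47.9% of its 100-base runs with genes elsewhere, so its count is less certain than the others.

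The largest fall among the tested members was that of LINC00261 (chr20:22547663-22578642, minus strand), a lncRNA next to the endoderm factor gene FOXA2 that is known from endoderm differentiation. The untreated libraries held 905 and 918 normalized counts and the Hdepl libraries 19.9 and 58.8, a 23.2-fold fall (log2 fold change -4.69 ± 0.26 SE, limma adjusted p = 2.20e-14). The Hdepl libraries differed from each other here, and the log2 fold change was -3.93 without Hdepl replicate 1 and -5.45 without Hdepl replicate 2. LINC01833 (chr2:44921077-44939199), which starts beside the homeobox gene SIX3, fell from 629 and 637 to 88.6 and 113 counts (log2 fold change -2.65 ± 0.12 SE, limma adjusted p = 5.93e-16). LINC02381 (chr12:54126019-54147485), at the edge of the HOXC cluster, fell from 247 and 218 to 31.6 and 45.6 counts (log2 fold change -2.58 ± 0.18 SE, limma adjusted p = 3.98e-12), and 24.0% of its exons overlap a gene on the opposite strand. LINC02038 fell from 81.1 and 68.2 to 10.8 and 14.2 counts (log2 fold change -2.49 ± 0.28 SE, limma adjusted p = 1.46e-08). LINC01819, chosen after its values were seen, fell 5.02-fold, from 686 and 662 to 124 and 145 counts. The 10 members with the highest untreated level per kb were picked by untreated values, which favours falls, so their fold differences are given as a description. Lower under histidine depletion were LINC03057 (2.94-fold), LINC02562 (2.69-fold), LINC01169 (2.45-fold), LINC00992 (2.01-fold), LINC02086 (1.66-fold), LINC01123 (1.37-fold) and LINC01106 (1.25-fold), of which the last 2 share sequence.

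The remaining 52 members reached a mean of 50 only in untreated cells, in Hdepl cells or in both, and were chosen by the values compared here. Hdepl libraries lay wholly above untreated ones in 31 of them (59.6%) and wholly below in 19 (36.5%), which the choice of members favours. Such separation was common, since it held for 44.6% and 43.5% of all genes tested. Among 270 other lncRNAs chosen in the same way it held for 58.1% and 34.8%, so the members' shares were near that background. The most extreme was LINC02725 (chr11:128095758-128183671), with 173 and 199.6 normalized counts under histidine depletion and 0 reads in both untreated libraries, at least 60.1-fold higher, computed against a floor of 3 reads per library. LINC00943 gave 334 and 312 counts under histidine depletion against 3.25 and 2.96 in untreated cells, a ratio of 104 with an exact 95% counting interval of 47.5 to 284, which covers counting error only. Its neighbour LINC00944 gave 388 and 321 against 9.74 and 10.9. LINC00943 and LINC00944 overlap on opposite strands over 21.6% and 34.8% of their exons, so their counts may not be separate measurements. LINC00702 gave 66.0 and 60.8 counts against 0 in both untreated libraries, at least 20.4-fold higher. LINC02742 gave 222 and 208 against 0 and 6.92, and LINC02577 901 and 829.7 against 34.6 and 39.5. LINC01619 gave 125 and 123 against 4.33 and 0.988, and 10.2% of its exons lie in BTG1 on the same strand. In the other direction, LINC02532 had 83.3 and 66.2 counts in untreated cells and 1.81 and 0 under histidine depletion, at least 26.0-fold lower against the same floor. The ratio itself was 78.3, with an interval of 21.3 to 653 of the same kind from 2 reads in the Hdepl libraries together. LINC01515 went from 177 and 186 to 19.9 and 23.3, LINC01814 from 169.8 and 126 to 19.0 and 26.3, and LINC03049 from 87.6 and 90.9 to 15.4 and 13.2 counts.

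The start regions of the members were read for short motifs. RefSeq windows of 250 bases before to 50 bases after a gene's start (GRCh38.p14) were at hand for 134 members, 157 windows in all. The letters searched, on both strands, were TGACTCA (bound by AP-1, the JUN and FOS dimer), TGATGNAA (the C/EBP-ATF element of amino acid response genes), TGACGTCA (the cyclic AMP response element) and GGANTTTCC (NF-kB), and none of these letter strings contains another. TGACTCA was found in 17 member windows (10.8%), against 4.95% of all 35116 windows, 4.52% of those of other lncRNAs at the same level and 3.56% of those of protein-coding genes. Those at LINC01001 and LINC01002 hold the same 26 bases and are not separate matches, and 5 of the 16 members concerned reached a mean of 50 only under histidine depletion. Among members that the tryptophan-depleted libraries carried to 50, 9.80% of 102 had TGACTCA, against 4.69% of 405 other lncRNAs and 4.90% of all 9923 genes at that level. TGATGNAA was found in 7.01% of member windows, against 3.62% of all windows, 1.39% of those of other lncRNAs and 2.05% of those of protein-coding genes. TGACGTCA was found in 1.91% of member windows, against 1.85%, 1.91% and 2.81%, and GGANTTTCC in none of the 157, against 1.64%, 1.22% and 1.73%. Of the 16 members with TGACTCA, 10 had been carried to a mean of 50 by the tryptophan-depleted libraries, and of those 3 were higher, 3 lower and 4 not past the threshold under histidine depletion. Over all genes with a window at that level, 51.2% of 486 genes with TGACTCA were higher and 34.2% lower, and 42.1% of 9437 genes without it were higher and 43.2% lower. TGATGNAA lay at 11 members, and of the 10 that could be tested 2 were higher and 5 lower, against 44.9% higher and 41.5% lower among all 272 genes with these letters. Of the 92 tested members with a window but without TGATGNAA, 29.3% were higher and 50% lower. Of the 92 without TGACTCA, 28.3% were higher and 52.2% lower. The TGACTCA windows below are those of all 6 tested members that passed, in either direction. LINC00973, described above, rose, as did LINC02535 (142 and 148 to 295 and 318 counts) and LINC00930 (17.3 and 15.8 to 32.5 and 31.4). LINC00963 fell (2040.3 and 2186 to 1554 and 1546), as did LINC00339 (123 and 98.8 to 43.4 and 46.6) and LINC02882 (62.7 and 69.2 to 9.04 and 19.2). Other genes overlap 47.5% of the exons of LINC00339 on the opposite strand and 20.8% on the same strand, so its count is less certain. LINC00973 and LINC02535 hold 2 matches each. RefSeq starts can differ from those of the annotation whose exons describe the members here. From the first base of the gene in GENCODE, the window shown begins 61 bases upstream for LINC00973 and 14652 bases upstream for LINC02535. The others begin within the annotated gene, at 523 bases from that base for LINC00339, 2266 for LINC00930, 11724 for LINC00963 and 109786 for LINC02882. Each window is 26 bases, 5′ to 3′ on the strand of the gene, with the motif or its reverse complement in capitals.
LINC00973: gtgaagaaaTGAGTCAtacttatacc
LINC02535: cagccagctTGACTCAccgcccccac
LINC00930: cattcccacTGACTCAgatgctgagg
LINC00963: tcggggcccTGAGTCAtcgccgcccc
LINC00339: tgtatccacTGACTCAtctggagtga
LINC02882: cgcatggagTGACTCAgagaagggac
The LINC00973 window lies at chr3:98980997-98981022 (plus), that of LINC02535 at chr6:85404813-85404838 (minus) and that of LINC00930 at chr15:92572238-92572263 (minus). The LINC00963 window lies at chr9:129488670-129488695 (plus), that of LINC00339 at chr1:22025081-22025106 (plus) and that of LINC02882 at chr12:74292789-74292814 (minus). A match is a description of letters and not a bound site.

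The second comparison asked which LINC RNAs changed under tryptophan depletion. Here rises and falls were about equally frequent, the large changes were mostly rises, and LINC02889, LINC02967 and LINC00365 were among them. Of 143 members that Hdepl libraries alone carried to a mean of 50, 133 passed the filter on low counts and 10 did not. Of the 133, 47 (35.3%) were higher, 45 (33.8%) lower and 41 did not pass. Over all genes tested 36.1% were higher and 34.8% lower. Of the genes that averaged 50 or more in Hdepl, 39.9% were higher and 38.4% lower, and among other lncRNAs at that level 37.9% were higher and 28.4% lower. The members' shares were thus near those of all genes, and the median log2 fold change was 0.049 for the members, 0.013 for all genes tested and 0.11 for the other lncRNAs. With a change of at least 2-fold also required, 22 members (16.5%) were higher and 15 (11.3%) lower, against 10% and 10.4% of all genes tested, 8.02% and 8.77% of the genes that averaged 50 or more in Hdepl, and 13.2% and 7.46% of the other lncRNAs at that level.

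LINC02889 rose most, from 22.6 and 21.5 normalized counts in the untreated libraries to 539 and 559 in the Wdepl libraries, a 24.9-fold change (log2 fold change 4.58 ± 0.16 SE, limma adjusted p = 1.13e-58). LINC01913 went from 7.52 and 6.85 to 96.7 and 84.5 counts (log2 fold change 3.48 ± 0.30 SE, limma adjusted p = 6.10e-21). LINC02964 (chr8:125648327-126008930) went from 54.8 and 41.1 to 347 and 362 counts (log2 fold change 2.87 ± 0.15 SE, limma adjusted p = 1.28e-39), and LINC01589 (chr22:45604432-45620858) from 16.1 and 21.5 to 116 and 135 (log2 fold change 2.69 ± 0.23 SE, limma adjusted p = 3.07e-21). No Wdepl library of these 4 genes came near the untreated range. LINC02967, a gene of 1144 exonic bases at chr20:24931840-24932983, rose 5.93-fold, from 501 and 508 to 2976 and 3006 counts (log2 fold change 2.57 ± 0.06 SE, limma adjusted p = 1.98e-79). The very small p-values come from a spread that limma estimates over all genes and not from 2 libraries alone. Several abundant members, chosen after their values were seen, belonged to this group. LINC00365 rose 5.52-fold (231 and 251 to 1347 and 1315 counts), LINC01133, studied in colorectal tumours, 4.76-fold (212 and 202 to 950.0 and 1023), LINC00662 3.53-fold (1622 and 1727 to 5870.4 and 5949.5) and LINC00963 2.88-fold (2027 and 2163 to 6119.8 and 5944).

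Among the tested members, the largest falls under tryptophan depletion were smaller than the largest rises. Larger falls of members that were not tested, such as LINC00261, are given further below. LINC02984 (chr8:53493523-53524336) went from 55.9 and 45.0 to 10.4 and 5.40 counts (log2 fold change -2.58 ± 0.35 SE, limma adjusted p = 3.69e-11). LINC01094 (chr4:78638780-78683185) went from 19.3 and 19.6 to 5.20 and 4.50 (log2 fold change -1.81 ± 0.46 SE, limma adjusted p = 2.81e-04). LINC00665 and LINC01322, chosen after their values were seen, fell 3.17-fold (165 and 203 to 56.1 and 60.3) and 3.18-fold (48.4 and 46.0 to 13.5 and 16.2). LINC02086, LINC01123 and LINC01106 were picked by their untreated level per kb, which favours falls, so their fold differences are a description. LINC02086 was 2.07-fold lower, at 538 and 469 counts against 1036 and 1055 in untreated cells. LINC01123 was 2.04-fold and LINC01106 1.86-fold lower, and as genes that share most of their runs they are not separate observations.

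A further 56 members reached 50 only in untreated cells, in Wdepl cells or in both, and were therefore chosen by the values of this comparison. Wdepl libraries lay wholly above the untreated ones in 26 of them (46.4%) and wholly below in 24 (42.9%). The shares were 42.6% and 41.5% over all genes tested and 47.9% and 37.7% over 284 other lncRNAs chosen in the same way, so these counts say little about the members. LINC02568 (chr15:63390136-63438320) gave 169 and 182 counts under tryptophan depletion against 16.1 and 13.7 in untreated cells, LINC00861 153 and 140.3 against 15.0 and 12.7, LINC00589 133 and 161 against 18.3 and 12.7 and LINC01564 324 and 322 against 37.6 and 35.2. All 4 were far higher in both Wdepl libraries. LINC00861 overlaps LINC02964 on the opposite strand over 1.48% of its exons. LINC00261 stood at 899 and 909 counts in untreated cells and 89.4 and 72.9 under tryptophan depletion, 11.1-fold lower. LINC02532 went from 82.7 and 65.5 to 15.6 and 3.60, LINC00456 from 57.0 and 67.5 to 7.28 and 10.8, LINC02041 from 40.8 and 59.7 to 5.20 and 12.6, LINC01515 from 176 and 184 to 42.6 and 30.6 and LINC03049 from 87.0 and 90.0 to 26.0 and 19.8 counts. Both comparisons used the same untreated libraries, so their values are given side by side and not as independent observations.

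The third comparison tested the difference between the depletions directly, on reads of all 6 libraries scaled together. As the depleted media differ in base (RPMI against DMEM F-12), the missing amino acid and the base medium cannot be told apart here. LINC RNAs were more often lower under histidine than under tryptophan depletion. Of the 144 members that untreated libraries alone carried to a mean of 50, 79 (54.9%) were lower in Hdepl, 35 (24.3%) higher and 30 did not pass. All genes tested gave 38.7% higher and 38% lower, and genes that averaged 50 or more in untreated cells 41.5% higher and 42.7% lower. Other lncRNAs at that level gave 25.7% higher and 45.4% lower, a split closer to that of the members. The median log2 difference was -0.54 for the members, 0.011 for all genes tested and -0.23 for the other lncRNAs. At 2-fold or more, 43 members (29.9%) were lower and 12 (8.33%) higher, against 15.8% and 16% of all genes tested, 14.9% and 13.1% of the genes that averaged 50 or more in untreated cells, and 24.4% and 10.6% of the other lncRNAs at that level.

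LINC00513 had 811 and 801 jointly scaled counts in the Hdepl libraries and 47.0 and 42.1 in the Wdepl libraries, 18.1-fold higher under histidine depletion (log2 difference 4.15 ± 0.13 SE, limma adjusted p = 1.27e-14). LINC00973 gave 2479 and 2324 against 379 and 348, 6.61-fold higher (log2 difference 2.72 ± 0.07 SE, limma adjusted p = 1.40e-15). LINC00857 was 2.65-fold higher in Hdepl, and its jointly scaled counts of 798 and 785 under tryptophan depletion lay between the untreated values of 773 and 804. In the opposite sense, LINC01833 had 88.5 and 114 counts in Hdepl and 1224 and 1095 in Wdepl libraries, 11.5-fold lower (log2 difference -3.51 ± 0.10 SE, limma adjusted p = 4.41e-15). LINC00482 was 9.81-fold lower (24.4 and 29.5 against 256 and 273) and LINC02970 7.55-fold lower (76.8 and 80.4 against 579 and 608). LINC02532 was low in both depletions, with 1.81 and 0 and 16.0 and 3.66 counts (log2 difference -2.41 ± 0.59 SE, limma adjusted p = 0.00128, but 0.0511 without the trend), and its difference ran from -1.48 without Wdepl replicate 1 to -3.34 without Wdepl replicate 2. Among the 55 members chosen by the values of this comparison, Hdepl lay wholly above Wdepl in 31 (56.4%) and wholly below in 23 (41.8%), against 44.7% and 43.8% of all genes tested and 53.7% and 37.3% of 311 other lncRNAs chosen in the same way. Of those members, LINC00524 had 63.2 and 72.2 counts in Hdepl and 4.27 and 1.83 in Wdepl, LINC03080 7.23 and 7.12 and 56.6 and 61.3, and LINC00589 6.32 and 15.3 and 137 and 164. LINC02725 and LINC00702, at 0 reads in both Wdepl libraries, were at least 62.9-fold and 21.4-fold higher in Hdepl.

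**Figure D2:**
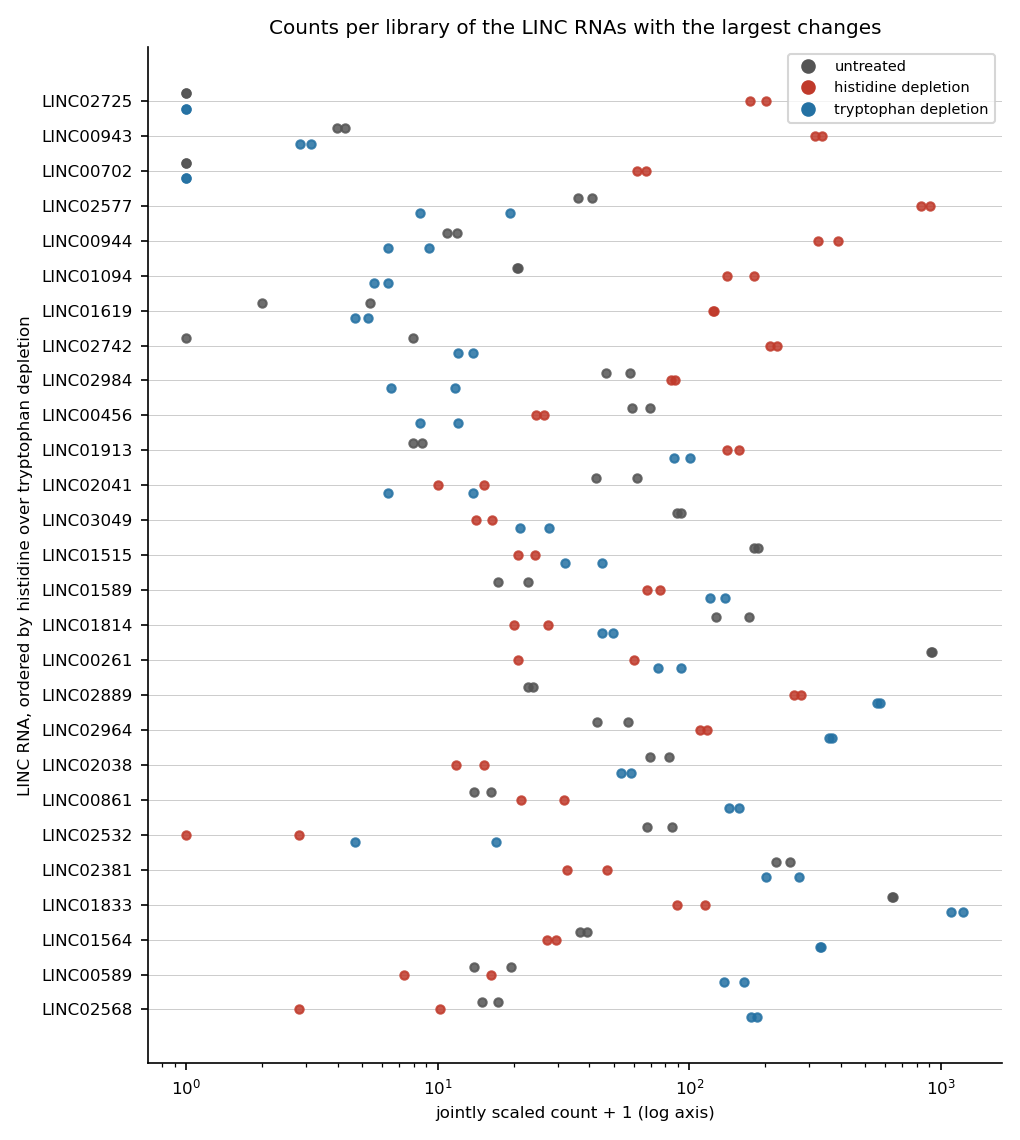
Jointly scaled counts plus 1 (log axis) of the LINC RNAs with the largest changes against untreated cells, where each point is 1 library and members are ordered by histidine over tryptophan depletion. At the top, LINC02725, LINC00943 and LINC00702 are high in the Hdepl libraries and low in the others, and at the bottom LINC02568, LINC00589 and LINC01564 are highest in the Wdepl libraries.

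Some members moved in opposite directions in the separate tables. LINC01833, which could be tested in both comparisons, fell to 88.6 and 113 counts in Hdepl from 629 and 637 and rose to 1192 and 1076 in Wdepl from 624 and 631 (log2 fold change 0.85 ± 0.07 SE, limma adjusted p = 9.28e-24). LINC00513 stood at 811 and 797 counts in Hdepl against 74.6 and 70.2 in untreated cells, and at 45.7 and 41.4 in Wdepl against 74.1 and 69.4 (log2 fold change -0.71 ± 0.22 SE, limma adjusted p = 0.00237, but a DESeq2 adjusted p of 0.0558 on recovered reads). LINC02577 had 901 and 829.7 counts in Hdepl, 34.6 and 39.5 in untreated and 7.28 and 18.0 in Wdepl libraries (log2 fold change -1.59 ± 0.35 SE, limma adjusted p = 2.09e-05 for the fall in Wdepl, but 0.0515 without the trend), and that fall was -0.99 without Wdepl replicate 1. LINC01094 had 140.1 and 178 counts in Hdepl against 19.5 and 19.8 in untreated cells, beside the fall under tryptophan depletion given above. The converse pattern was seen in LINC03034, with 9.04 and 9.12 counts in Hdepl, 48.7 and 37.6 in untreated and 149 and 138 in Wdepl libraries (log2 fold change -2.12 ± 0.33 SE, limma adjusted p = 2.86e-06 for the fall in Hdepl). LINC02568 showed it too, with 1.81 and 9.12 counts in Hdepl against 16.2 and 13.8 (log2 fold change -1.58 ± 0.54 SE, limma adjusted p = 0.0106), but without Hdepl replicate 1 this fall was -0.66 and no longer passed (limma adjusted p = 0.25).

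Other members gave values that the test did not separate. LINC00511, a long oncogenic lncRNA with 27664 exonic bases, had 1141 and 1195 counts in Hdepl against 1118 and 1227 in untreated cells (log2 fold change -0.0039 ± 0.07 SE, limma adjusted p = 0.96) and 1051 and 1070.3 in Wdepl against 1110.0 and 1215 (log2 fold change -0.13 ± 0.06 SE, limma adjusted p = 0.0517). LINC00662, LINC01133 and LINC00365, which rose under tryptophan depletion, gave log2 fold changes of -0.12 ± 0.06, 0.22 ± 0.12 and 0.13 ± 0.11 (SE) under histidine depletion, with limma adjusted p of 0.0762, 0.0838 and 0.29. The direct comparison placed all 3 lower in Hdepl than in Wdepl, by 3.88-fold, 4.13-fold and 5.11-fold (limma adjusted p = 6.06e-16, 6.19e-13 and 3.33e-14). These 4 members were chosen after their values were seen.

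Since some lncRNAs act near their own site, each member's nearest protein-coding gene was taken by the distance between annotated starts. The median distance was 66156 bases, 18 members had a coding start head to head within 5 kb on the other strand, and 10 had one within 1 kb. Over the 110 tested members with a tested neighbour, the log2 fold changes of member and neighbour under histidine depletion had the same sign in 69 pairs, with Pearson r = 0.28 and Spearman rho = 0.37 across pairs. Under tryptophan depletion 58 of 97 pairs had the same sign (r = 0.067, rho = 0.25). The 12 head-to-head pairs under histidine depletion gave r = 0.56 and rho = 0.52 with 9 pairs of the same sign, and the 9 pairs under tryptophan depletion r = 0.35 and rho = 0.52 with 6. These are descriptions across genes, the points share the same libraries and depth, and genes are not independent replicates.

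Individual pairs differed. FOXA2, a pioneer transcription factor of endoderm that starts 6813 bases from LINC00261, fell from a mean of 1226 to 423 counts under histidine depletion (log2 fold change -1.54 ± 0.08 SE, limma adjusted p = 6.90e-15). Under tryptophan depletion FOXA2 fell by 0.23 ± 0.06 (log2, SE), while LINC00261 was 11.1-fold lower. CA12, a membrane carbonic anhydrase 8290 bases from LINC02568, fell under histidine depletion (log2 fold change -2.46 ± 0.06 SE, limma adjusted p = 7.20e-21) and rose under tryptophan depletion (1.95 ± 0.05 SE, limma adjusted p = 1.77e-77). The counts of LINC02568 were likewise lower in the first comparison and higher in the second. ETS1, a transcription factor gene and the nearest coding gene to LINC02725 at 491800 bases, went from a mean of 924 to 39379.7 counts under histidine depletion (log2 fold change 5.41 ± 0.06 SE, limma adjusted p = 6.62e-28). GCLC, the catalytic subunit of glutathione synthesis, starts 499 bases from LINC01564 on the other strand, and their gene bodies overlap without shared exons. It rose under tryptophan depletion (log2 fold change 1.08 ± 0.05 SE, limma adjusted p = 1.79e-47) beside counts of LINC01564 that were 8.88-fold higher. BTG1, an antiproliferative gene whose exons overlap LINC01619, rose in both depletions, by 0.81 and 1.14 on the log2 scale. LINC01619 had high counts only under histidine depletion, with jointly scaled counts of 125 and 123 there and 4.27 and 3.66 under tryptophan depletion. ANXA11, head to head with LINC00857 at 1800 bases, rose under histidine depletion by 0.39 ± 0.06 (log2, SE), against 1.42 for LINC00857.

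A further 4 pairs, those of LINC01135, LINC01913, LINC00365 and LINC01124, were chosen after their values were seen, and in 3 of them member and neighbour moved apart. JUN, a subunit of AP-1, starts 336 bases head to head from LINC01135 and rose under histidine depletion (log2 fold change 1.64 ± 0.05 SE, limma adjusted p = 8.06e-19), whereas LINC01135 fell from 204 and 187 to 131 and 108 counts (log2 fold change -0.71 ± 0.14 SE, limma adjusted p = 7.69e-05). PKDCC, the nearest coding gene to LINC01913, fell by 1.59 ± 0.06 (log2, SE) under histidine depletion while LINC01913 rose. KATNAL1, a katanin-related gene 198656 bases from LINC00365, fell under tryptophan depletion from a mean of 143 to 11.1 counts (log2 fold change -3.57 ± 0.25 SE, limma adjusted p = 5.65e-28) while LINC00365 rose. SP5, a Wnt-responsive transcription factor gene head to head with LINC01124 at 770 bases, fell together with it, and LINC01124 went from 92.0 and 86.0 to 23.5 and 25.3 counts under histidine depletion (log2 fold change -1.82 ± 0.23 SE, limma adjusted p = 8.85e-08). Beside LINC01833, SIX3 was listed at 0 in untreated and Hdepl libraries, so no neighbour change could be set beside it.

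**Figure D3:**
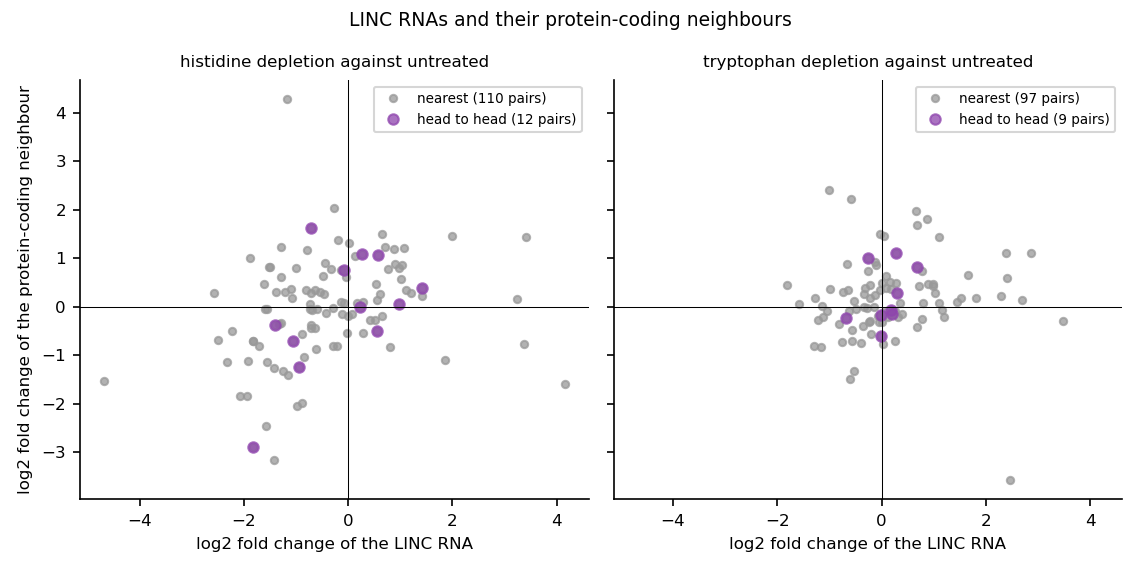
Log2 fold change against untreated cells of tested LINC RNAs (horizontal) and of their nearest protein-coding gene (vertical), each point 1 pair, with head-to-head pairs within 5 kb in purple. In the histidine panel 69 of 110 nearest pairs share their sign, and in the tryptophan panel 58 of 97 do.

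A mean of 50 was reached by 144 members in untreated cells, 143 under histidine depletion and 147 under tryptophan depletion. It was reached in all 3 groups by 98 members, in 2 groups by 39 and in 1 group by 62. Of these 62, from 199 members in all, 26 reached it only under histidine depletion, 19 only under tryptophan depletion and 17 only in untreated cells, against 134, 96 and 83 of the 1215 other lncRNAs at the same level. Just inside the threshold were LINC00310 with means of 18.1, 34.2 and 51.7 normalized counts in untreated, Hdepl and Wdepl cells, LINC01521 with 51.3, 21.0 and 19.6, and LINC02041 with 50.7, 11.6 and 8.89. Just outside were LINC00685 with 25.1, 39.5 and 49.1, LINC01917 with 25.8, 25.9 and 48.5, and LINC02593 with 17.6, 38.2 and 47.8.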

How the data were processed

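Poly(A) RNA of HT29 cells was sequenced as stranded paired-end libraries. Per the study's methods, the authors used STAR 2.7.10a for alignment to GRCh38, HTSeq 2.0.5 with GENCODE 38 for exon counts, and DESeq2 for normalization; the methods name protein-coding genes, but the tables list other gene types as well. The deposited values are a signal of this kind, gene counts divided by size factors, in 2 tables normalized separately, each with the same untreated libraries. Whole reads were recovered from the steps of the values (100% whole within 0.1 read), and totals ranged from 46390819 to 64388876 reads. Use of the libraries' molecular identifiers is not given in the sources used here.

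Each depletion was compared with untreated within its own table, and the depletions with each other on recovered reads of all 6 libraries scaled by median-of-ratios size factors. The test was limma 3.58.1 (trend on, two-sided, R 4.3.3) on log2(value + 1) for genes averaging 10 or more over the libraries compared, with Benjamini-Hochberg adjustment over all genes tested and a threshold of 0.05; fold changes on this scale understate those of low genes. Members were tested only where the group left out of a comparison alone carried them to 50. Named were the 10 highest per kb, up to 8 rises and 8 falls per comparison, up to 6 members with opposite directions, up to 6 that reached 50 in 1 group only, and 3 members on each side of the threshold; others are marked where they appear. Members and lists were chosen with earlier results of these data known. Positions and transcripts came from GENCODE 44, promoter windows from RefSeq. The test was checked on simulated data with the same dispersion for every gene, so the check does not cover the wider spread between replicates of the members. Alternatives were edgeR 4.0.16 and DESeq2 1.42.0 on recovered reads, other pseudocounts (0.5, 8), filters, scalings and member thresholds (25, 100), a replicate block and leaving out each library.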

Additional observations from a re-analysis of the deposited data

Results flagged for a closer look

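In LINC00513 and LINC01833 the depletions moved every library in opposite directions from the untreated libraries, and the difference between the depletions was itself tested. LINC00513 had a log2 difference of 4.15 between Hdepl and Wdepl (limma adjusted p = 1.27e-14), higher in both Hdepl libraries, and 19.4% of its exons overlap a gene on the opposite strand. Its fall under tryptophan depletion against untreated cells missed the threshold by DESeq2 (adjusted p = 0.0558). LINC01833 had a log2 difference of -3.51 (limma adjusted p = 4.41e-15), lower in both Hdepl libraries, and 11.9% of its exons overlap genes on the opposite strand. Whether the overlapping genes contribute to these counts was not tested. The base media of the depletions differ as well, and their part in these differences was not tested.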

How the results depend on the processing

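The counts of members past the threshold moved by over 1.5 times in 1 setting only, a required change of at least 2-fold, where 20 were higher and 43 lower in Hdepl against untreated, 22 higher and 15 lower in Wdepl against untreated, and 12 higher and 43 lower in Hdepl against Wdepl. By DESeq2 the counts were 33 and 62, 37 and 34, and 29 and 67, and by edgeR 40 and 74, 47 and 45, and 35 and 80. With members chosen at a mean of 25 the counts were 57 and 97, 70 and 54, and 45 and 102, and at a mean of 100 they were 27 and 53, 33 and 33, and 26 and 56. The replicate numbers did not pair the libraries (correlations of same-numbered deviations 0.0420, 0.00196 and -0.0412); a replicate block gave 41 and 77, 47 and 46, and 35 and 82, and is not a correction. For 72 single comparisons of named members, 966 values kept direction and call, 33 lost the call, 3 gained it and 6 changed sign. LINC00857 in Wdepl against untreated, at -0.0013, became 0.0062 with all 6 libraries fitted together and 0.11 with quantile normalization, and ranged from -0.030 to 0.027 when 1 library was left out. LINC01521 and LINC02041 in Hdepl against Wdepl ranged from -0.12 to 0.28 and from -0.16 to 0.97 when 1 library was left out, and were below 0 without Wdepl replicate 1. The cause was not tested. DESeq2 lost 9 of the calls, those of LINC00310, LINC00861, LINC02568, LINC02970 and LINC03080 in Hdepl against untreated, LINC00513 and LINC00992 in Wdepl against untreated, and LINC00261 and LINC03049 in Hdepl against Wdepl (adjusted p from 0.0558 to 0.213). limma without the trend lost 5, those of LINC02568 in Hdepl against untreated, LINC00992 and LINC02577 in Wdepl against untreated, and LINC00261 and LINC02532 in Hdepl against Wdepl (adjusted p from 0.0511 to 0.119). Without the filter on low counts, LINC00861, LINC02568 and LINC03080 in Hdepl against untreated and LINC03049 in Hdepl against Wdepl were lost, edgeR also lost LINC03049 there, and quantile normalization lost LINC00861 in Hdepl against untreated. LINC01564 in Hdepl against untreated passed in the joint fit and without the trend, and LINC00589 without Hdepl replicate 2. Leaving out 1 library lost the calls of LINC02568, LINC02970, LINC03080, LINC00861 and LINC00310 in Hdepl against untreated, LINC00992 in Wdepl against untreated, and LINC01515, LINC02562 and LINC03049 in Hdepl against Wdepl. There the lone library of a group is assumed to vary like the others. With 2 libraries a group, small changes of members near the filter cannot be resolved.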
